A study of Mus musculus with 6 samples.

Results

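Solute carriers are membrane proteins that move small molecules and ions across the cell surface and the membranes of organelles. Their genes were followed in the mouse uterus after progesterone. They were taken as all probe sets whose platform annotation gave 1 symbol beginning with Slc and a number. Slc2a1, Slc2a3, Slc7a5 and Slc3a2 were left out. Of 147 such genes with a probe set, 102 in 34 families lay above the detection floor on at least 2 of 6 arrays and were analysed. The floor was the 40th percentile of the table, 6.60 on the log2 scale or 96.9 on the linear scale. Each gene was read from its probe set with the highest mean. The choice used no difference between times, though 4 genes passed the filter only through arrays after progesterone. Of the 102 genes, 91 lay above the floor on all 6 arrays.

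RNA came from whole uterine horns of ovariectomized 129/SvImJ wildtype females aged 10 to 16 weeks, 14 days after the ovaries were removed. One group received no injection and is called 0 h. The 5 other groups received 0.2 mg progesterone (P4) in 0.1 mL sesame oil under the skin and were collected 6, 12, 15, 18 or 24 h later. Each group was 1 pool of 8 horns from 4 mice on 1 Affymetrix array, so no time had a replicate. All groups lacked ovaries. No group was given oil alone, so progesterone, oil and handling cannot be told apart, and neither can progesterone and the single 0 h pool.

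The carriers a tissue makes determine which nutrients, ions and signals its cells can exchange. Members of families 1, 7, 15 and 38 bring amino acids and peptides into cells, family 6 takes up taurine, creatine and neurotransmitters with sodium, and family 25 exchanges metabolites across the inner mitochondrial membrane. Family 39 brings zinc into the cytosol and family 30 takes it out, while family 35 supplies the Golgi and endoplasmic reticulum (ER). In the uterus, carriers in the epithelium set the composition of the fluid that an embryo meets before it implants, and progesterone prepares that epithelium and the stroma beneath it.

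The medians of the 6 arrays lay between 7.12 and 7.22. Over all analysed probe sets, the 0 h array correlated with each P4 array at 0.932 to 0.948 and P4 arrays with each other at 0.953 to 0.989. Whole uterus mixes epithelium, stroma and muscle, and fewer cells of a type cannot be told apart from less RNA per cell. The 14 epithelial markers summed to 15667 on the linear scale at 0 h and to 10799 to 13407 on the P4 arrays. Of them, 3 fell (Krt18, Epcam and the secreted Ltf), where 1.91% of all genes did, and none was at the floor on every array. Others went the other way: Cldn3 was above 0 h on all 5 P4 arrays, and Cldn4 and Cldn7 on most. The 10 analysed stromal markers summed to 15930 at 0 h and to 17251 to 20867 after it, but did not move together. Col1a1 went from 10.06 at 0 h to 11.85 at 24 h and Col3a1 from 10.78 to 11.86. Hoxa10, Hoxa11, Hand2 and Des were also above 0 h on all P4 arrays, while Dcn and Thy1 were below it on all. Lum differed by -1.22 at 6 h and 0.22 at 24 h, and Pdgfra by -0.07 to 0.13. The part of these marker changes in any carrier's value was not tested.

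Most carriers stayed close to their 0 h level. Of the 102 genes, 82 (80.4%) were under 1.5-fold from 0 h at all 5 times, against 77.2% of the 5915 analysed genes. Only 3 (2.94%) reached 2-fold at any time, against 6.20% of all genes. These 3 were Slc15a2, a carrier of di- and tripeptides, which was lower, and Slc35b1 and Slc25a48, which were higher. Slc35b1 belongs to the nucleotide sugar carrier family and has been described as an ATP carrier of the ER. Slc25a48 is a mitochondrial carrier linked to choline.

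At 6 h, 2 carriers were at least 2-fold higher (Slc25a48 and Slc35b1), where 1.54% of all genes were, and 1 was lower (Slc15a2), where 1.2% were. At 12 h Slc35b1 was higher (background 1.86%) and Slc15a2 lower (background 1.81%). The 15 h array again had Slc35b1 and Slc25a48 higher (background 2.1%) and Slc15a2 lower (background 1.64%). None passed 2-fold at 18 h, where 1.14% of all genes were higher and 1.83% lower, nor at 24 h, where 1.07% were higher and 1.46% lower. From 6 to 24 h the SD of the carriers' differences was 0.41, 0.39, 0.36, 0.28 and 0.27, while over all genes it was 0.39, 0.43, 0.45, 0.41 and 0.39. The middle of the carriers did not narrow in this way, with quartiles of -0.23 and 0.11 at 6 h and of -0.16 and 0.18 at 24 h. In the order of the times, the carriers' median difference was -0.10, 0.07, 0.05, -0.02 and -0.01, and that of all genes was -0.06, 0.03, 0.03, -0.04 and 0. As many as 61 carriers (59.8%) lay farther from 0 h at 6 h than at 24 h, against 51.4% of all genes. These 5 differences share the 0 h array.

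**Figure D1:**
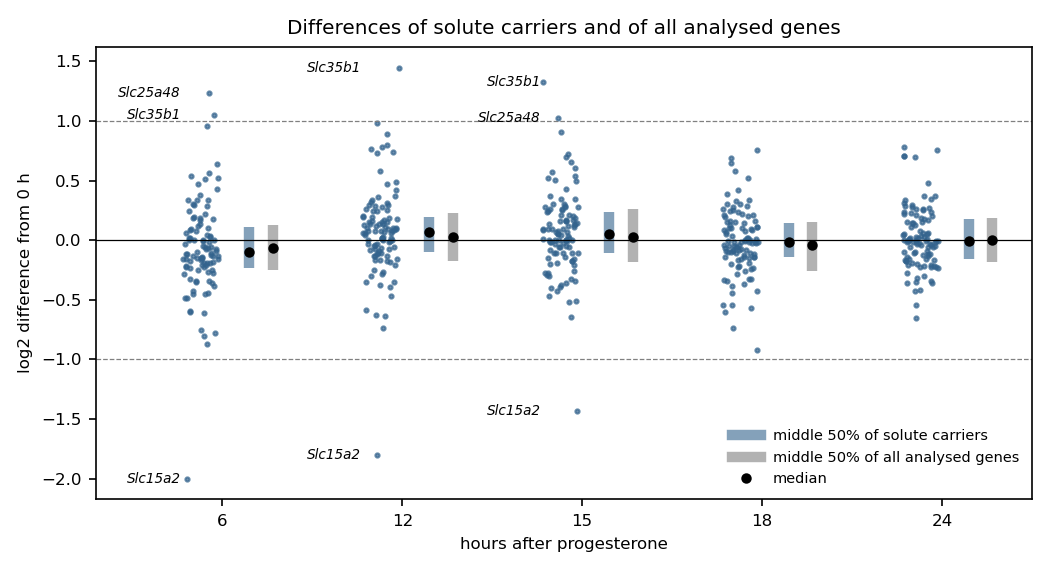
Each blue point is the log2 difference of 1 carrier from 0 h at the time on the horizontal axis. Bars beside the points span the 25th to 75th percentile of carriers (blue) and of all analysed genes (grey), with the median as a black dot, and dashed lines mark 2-fold. Only Slc15a2, Slc35b1 and Slc25a48 cross a dashed line, and no carrier does at 18 or 24 h.

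The start regions of 2 of these 3 genes hold a short sequence bound by steroid receptors, and they are shown for that reason. The windows are the 250 bases before the gene's start in RefSeq (GRCm38.p6), read 5′ to 3′ on the gene's strand. Capitals mark TGTTCT, which is AGAACA on the other strand. This is the hexamer that progesterone, glucocorticoid and androgen receptors share. In Slc25a48 they mark a match to ACANNNTGT, the core of their paired element.
Slc15a2, chr16:36784963-36785212, minus strand: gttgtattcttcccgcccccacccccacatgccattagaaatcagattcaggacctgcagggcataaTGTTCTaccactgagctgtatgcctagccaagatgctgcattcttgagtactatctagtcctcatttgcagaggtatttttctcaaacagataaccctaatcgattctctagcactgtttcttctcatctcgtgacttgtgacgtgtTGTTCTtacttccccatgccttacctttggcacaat
Slc25a48, chr13:56438105-56438354, plus strand: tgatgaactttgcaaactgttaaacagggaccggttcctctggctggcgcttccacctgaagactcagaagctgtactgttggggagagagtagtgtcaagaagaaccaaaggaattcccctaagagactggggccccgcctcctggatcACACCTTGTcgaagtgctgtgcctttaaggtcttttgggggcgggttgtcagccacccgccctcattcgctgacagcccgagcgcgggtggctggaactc

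In Slc15a2 the hexamers began 183 and 36 bases before the start, and in Slc25a48 the core match began 100 bases before it. Of the 102 carriers, 84 had a promoter in the RefSeq table. On either strand, AGAACA stood in 12 of the 84 (14.3%) and in 18.2% of all 27025 promoters of that length, and ACANNNTGT in 6 (7.14%) and 6.76%. The windows of Slc35b1 and Slc25a5 held no match to either, and Slc6a6 had no entry. CACGTG, the E-box, stood in 12 carrier promoters (14.3%) and in 6.86% of all. The 12 were those of Slc12a5, Slc12a7, Slc20a1, Slc25a1, Slc25a15, Slc25a36, Slc29a1, Slc30a5, Slc33a1, Slc38a5, Slc39a8 and Slc6a3. TGATGNAA, of amino acid response, stood in 3 (3.57%) and 3.91%. TGCNCNC, a loose pattern searched for metal response, was in 46 (54.8%) and 47.2%, so a match need not be such an element. TGACGTCA, of cAMP response, was in 2 (2.38%) and 1.77%. The ER stress response element was in 0 and 0.13%. A match describes letters only, and the genes with printed windows were chosen after their values were seen.

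Slc15a2 (PEPT2) had the lowest differences from 0 h of any carrier from 6 to 18 h. Its level was 9.02 at 0 h and 7.02, 7.23, 7.59, 8.10 and 8.73 at 6, 12, 15, 18 and 24 h. All 5 P4 arrays lay below 0 h, lowest at 6 h, at a linear ratio of 4.00 between the levels, and each later array lay above the one before. The mean of the P4 arrays differed from 0 h by -1.29 ± 0.55 (SE of the limma fit, adjusted p = 0.25) and did not pass. Slc15a2 was the 1 carrier at least 2-fold higher at 24 h than at 6 h, where 1.02% of all genes were, and no carrier was 2-fold lower, where 0.915% were.

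A trend over the 5 P4 arrays alone, which leaves out the 0 h array, called 2 carriers as rising with hours. Slc15a2 rose by 2.39 ± 0.28 per 24 h (SE, limma adjusted p = 0.016). Slc39a8 (ZIP8), an importer of zinc, manganese and iron, rose by 1.24 ± 0.23 per 24 h (adjusted p = 0.044). Its levels were 7.45, 7.87, 8.18, 8.18 and 8.39 from 6 to 24 h, around a 0 h level of 7.90. The background in this fit was 1.13% of genes that rose and 0.879% that fell, and no carrier fell. At an unadjusted p under 0.05 there were 13 carriers up and 9 down (21.6%), against 22.1% of all genes. Neither call passed when any 1 of the 5 arrays was left out. Slopes then lay between 2.06 and 3.03 for Slc15a2 (adjusted p 0.052 to 0.30) and between 0.91 and 1.57 for Slc39a8 (adjusted p 0.078 to 0.35), in fits that called 0 to 36 probe sets in all. Over all 6 arrays, 0 carriers rose (background 0.203%) and 0 fell (background 0.118%) with hours by limma, where 6 had an unadjusted p under 0.05 upwards and 2 downwards (7.84%, against 16.3% of all genes).

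Slc1a1 (EAAC1), a carrier of glutamate and aspartate, followed an order of times like that of Slc15a2 in a narrower range. It stood at 8.41 at 0 h and at 7.61, 7.83, 7.98, 8.09 and 8.26 afterwards, so every P4 array was below 0 h and each was above the one before. Its second probe set read 7.34 at 0 h, the floor at 6 h, 6.82, 6.84 and 6.83 at 12, 15 and 18 h, and 7.39 at 24 h. It was thus level from 12 to 18 h and did not show each step. The slope over the P4 arrays was 0.88 ± 0.19 per 24 h (adjusted p = 0.063). Slc29a1 (ENT1), which moves nucleosides such as adenosine in both directions, ran the other way. It stood at 9.65 at 0 h, 10.61 at 6 h, and then 10.13, 10.07, 9.90 and 9.91. All P4 arrays were above 0 h, most at 6 h, and the slope was -0.93 ± 0.23 per 24 h (adjusted p = 0.076).

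**Figure D2:**
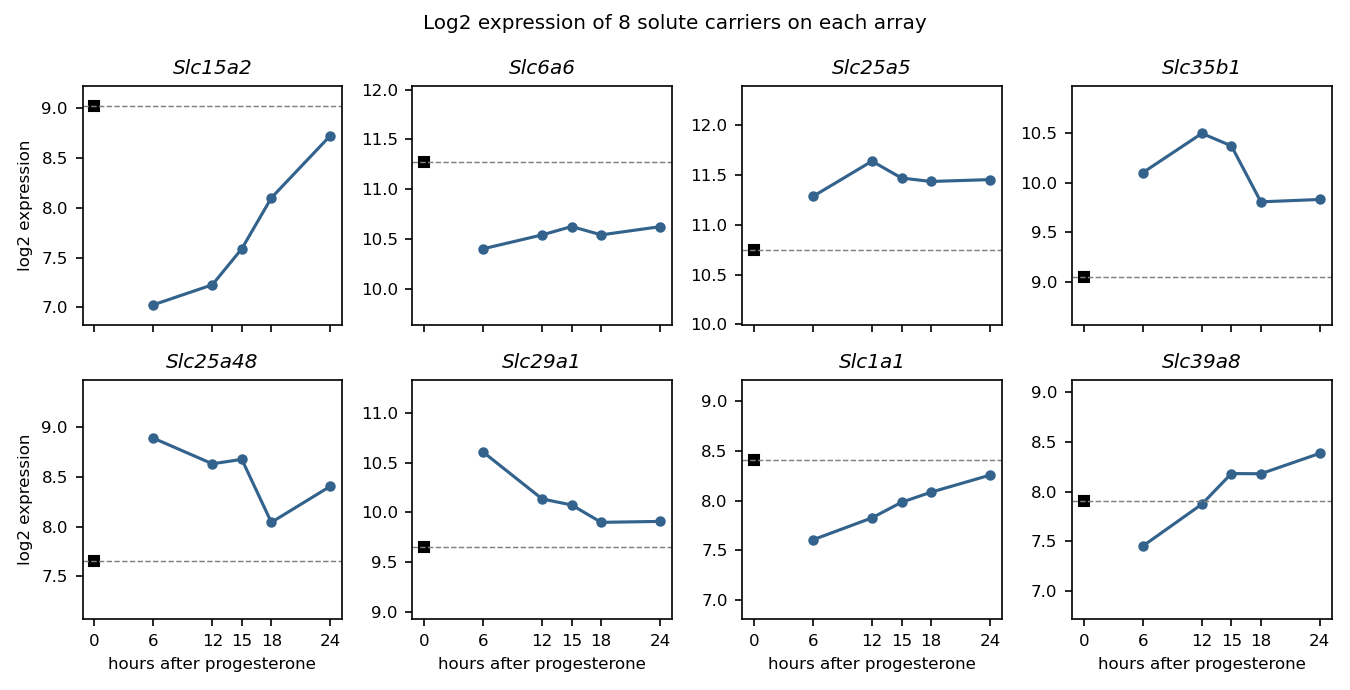
Log2 level of 8 carriers against hours after progesterone, 1 array per point; the square and dashed line are 0 h and the circles the 5 P4 arrays. Panels span the same range of log2 units but start at different levels, and Slc15a2 runs from 7.02 at 6 h to 8.73 at 24 h below its 0 h level of 9.02.

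The mean of the 5 P4 arrays was also compared with the 0 h array. Of the 102 carriers, 1 rose, Slc25a5, where 0.948% of all genes did, and 1 fell, Slc6a6, where 1.91% did. At an unadjusted p under 0.05 there were 7 up and 7 down (13.7%), against 19.3% of all genes. Regardless of size, 19 carriers (18.6%) were higher than 0 h on all 5 P4 arrays, where 20.2% of all genes were, and 27 (26.5%) were lower, where 27.5% were. The fit had 4 residual degrees of freedom and took the single 0 h array to vary like the P4 arrays.

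Slc6a6, the taurine carrier (TauT), was the most intense carrier of family 6. Its level was 11.27 at 0 h and 10.40, 10.54, 10.62, 10.54 and 10.62 at 6 to 24 h. The 5 P4 values lay within 0.22 of each other and all lay below 0 h. Slc6a6 fell by 0.73 ± 0.12 (SE, limma adjusted p = 0.029). The call held without the 6 h array (adjusted p = 0.016) and not without the 12, 15, 18 or 24 h array (0.060 to 0.11). Over all probe sets, too, leaving out a later array gave fewer calls than the fit with every array, and leaving out 6 h gave more. Taurine is an abundant osmolyte of uterine fluid. The epithelial markers had a median difference of -0.52 to -0.37 on the same arrays, while Cldn3 among them was higher on all 5 (0.26 to 0.56). The part of the epithelium in the lower Slc6a6 values was not tested.

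Slc25a5, an ADP/ATP carrier of the inner mitochondrial membrane, stood at 10.75 at 0 h and at 11.29, 11.64, 11.47, 11.44 and 11.45. It rose by 0.71 ± 0.14 (SE, limma adjusted p = 0.041), and every P4 array was above 0 h. This call too held without the 6 h array (adjusted p = 0.020) and not without another P4 array (0.082 to 0.12). The probe set is of a type that can match several related transcripts. A further analysed probe set of the gene had levels of 8.10 at 0 h and 7.91 to 8.39 after it, with a difference of 0.08 (adjusted p = 0.86). The close relative Slc25a4 was at 10.79 at 0 h and 10.73 to 11.16 after it (difference 0.21 ± 0.16, adjusted p = 0.54).

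**Figure D3:**
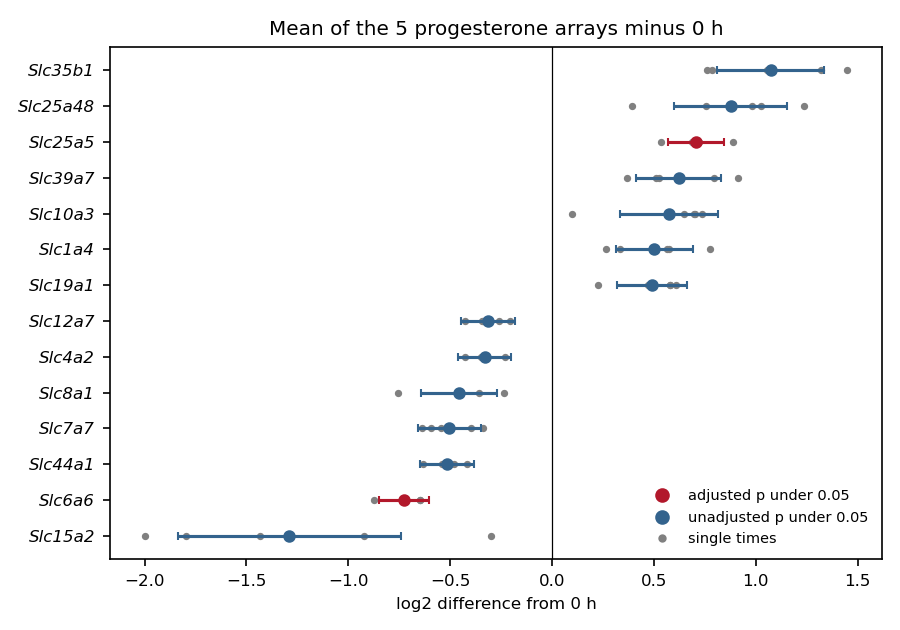
Mean of the 5 P4 arrays minus 0 h, in log2 units, for the 14 carriers with an unadjusted p under 0.05; bars are the SE of the limma fit and grey points the single times. Slc6a6 at -0.73 and Slc25a5 at 0.71 (red) had an adjusted p under 0.05, while Slc15a2 had the widest bar, with times from -2.00 to -0.30.

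The amino acid and peptide carriers, Slc15a2 and Slc1a1 among them, held 11 analysed genes of 19 with a probe set, and lay on both sides of 0 h. Their median was -0.07, 0.09, -0.11, -0.01 and -0.10 at the 5 times. Slc15a2, Slc1a1 and Slc7a7 were at least 1.5-fold lower at 6 and 12 h, 3 of 11 genes where 6.06% and 6.30% of all genes were. At 15, 18 and 24 h, 1, 1 and 0 of the 11 were, where 5.95%, 7% and 5.10% of all genes were. Slc7a7 (y+LAT1), which exports cationic amino acids, was at 8.12 at 0 h and 7.48 to 7.78 after it (difference -0.50 ± 0.15, adjusted p = 0.13). Slc1a4 (ASCT1), a carrier of alanine, serine and cysteine, was at 6.72 at 0 h and 6.98 to 7.50 after it (0.50 ± 0.19, adjusted p = 0.20). Its relative Slc1a5 (ASCT2), a glutamine carrier, was at 6.82 at 0 h, 7.25 at 6 h and within 0.22 of 0 h later. Slc38a2, a sodium-coupled carrier of neutral amino acids, stayed within 0.10 of its 0 h level of 8.58. Slc38a10 was the most intense member of the class and lay between 8.69 and 9.10 on all arrays. The cystine carrier Slc7a11 and the arginine carriers Slc7a1, Slc7a2 and Slc7a3 were below the floor on every array. Of 18 analysed genes of the amino acid stress response, 0 rose and 0 fell in the limma fit against 0 h. At some time 4 were at least 2-fold lower (Nupr1, Ddit3, Ddit4 and Cebpb) and 1 higher (Gars, by 1.04 at 6 h). Of all genes, 6.20% were at least 2-fold from 0 h at some time. The list split, and Gars, Aars, Asns and Atf4 were above 0 h on all P4 arrays. The nearest to the threshold were the stress regulators Nupr1 (-1.09 ± 0.23, adjusted p = 0.054) and Ddit3 (-1.13 ± 0.26, adjusted p = 0.063).

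Family 6 and the vesicle carrier Slc18a3 held 10 analysed genes of 13, and the median lay below 0 at all 5 times (-0.18, -0.13, -0.29, -0.17 and -0.21). Apart from Slc6a6 no member passed. Slc6a9 (GlyT1), a glycine carrier, was at 8.47 at 0 h and 7.95 to 8.27 after it, lowest at 15 h. Slc6a15, for branched-chain amino acids and proline, was at 8.06 at 0 h and 7.46 to 7.85 after it, lowest at 18 h. Both were below 0 h on all P4 arrays (differences -0.31 ± 0.16 and -0.32 ± 0.17, adjusted p = 0.34 and 0.36). Slc6a13 (GAT2), a carrier of GABA and taurine, was at 9.07 at 0 h, 8.92 at 6 h and 9.13 to 9.36 later. Slc6a2, for noradrenaline, lay between 7.01 and 7.27, and a second probe set was higher at 12, 18 and 24 h (0.50, 0.52 and 0.63).

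Zinc, iron, copper and manganese carriers were the one large class with every gene above the filter, 16 of 16. None passed the test against 0 h. The highest differences belonged to zinc importers that act in different membranes. Slc39a7 (ZIP7) releases zinc from the ER and Golgi. It stood at 8.52 at 0 h and at 9.03, 9.32, 9.43, 9.05 and 8.89, above 0 h throughout and highest at 15 h (0.62 ± 0.21, adjusted p = 0.16). Slc39a6 (ZIP6, first known as the estrogen-regulated LIV-1) was at 7.55 at 0 h and 8.19, 8.32, 8.08, 7.79 and 7.70 after it, again above 0 h on every array (0.47 ± 0.24, adjusted p = 0.34).

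Slc39a4 (ZIP4), which takes zinc up through the cell surface, was the most intense member of this class at 10.01 at 0 h, 10.01 at 6 h and 10.75, 10.67, 10.32 and 10.72 later. Its second probe set ran the other way, at 10.34 at 0 h and 9.59 to 10.06 after it, so no direction is given for this gene. Of the 7 analysed importers of family 39, 2 were above 0 h at 6 h and 5 at each later time, or 4 at each later time when Slc39a4 is read from its second probe set. The 5 exporters of family 30 were above 0 h in 4, 4, 4, 1 and 3 cases. Slc30a5, which loads zinc into the secretory pathway, had the highest median difference of the exporters, though not the highest level. It was at 7.83 at 0 h and 7.98 to 8.33 after it, above 0 h on all P4 arrays (0.34 ± 0.16, adjusted p = 0.30). Its second probe set differed in the same direction, by a median of 0.44. The plasma membrane exporter Slc30a1 was at 7.30 at 0 h and 6.92 to 7.21 after it.

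**Figure D4:**
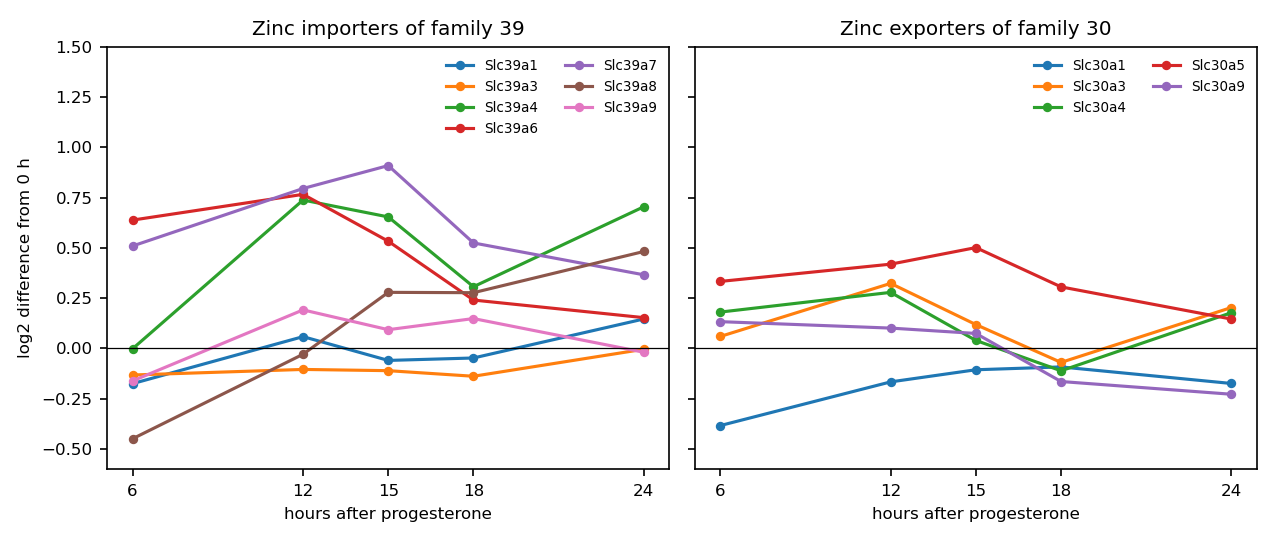
Log2 difference from 0 h at each time for 7 zinc importers of family 39 (left) and 5 exporters of family 30 (right), 1 line per gene. Slc39a7 is highest at 15 h (0.91) and Slc39a8 goes from -0.45 at 6 h to 0.48 at 24 h, while exporters stay between -0.38 and 0.50.

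Among genes that handle metals without being carriers, 0 of 12 analysed rose or fell, where 0.948% of all genes rose and 1.91% fell. The metallothionein Mt1, which binds zinc and copper, was at 11.27 at 0 h and 11.68 to 12.02 after it (0.63 ± 0.14, adjusted p = 0.057). The iron and manganese carrier Slc11a2 (DMT1) lay between 10.06 and 10.30 on all 6 arrays. Slc11a1, its relative in macrophages, was at 7.34 at 0 h and 7.06 to 7.29 after it, and the 7 analysed macrophage markers summed to 3420 at 0 h and 3051 to 3433 after it. Slc31a1, the copper importer, was at 8.20 at 0 h and 8.28 to 8.69 after it (0.30 ± 0.17, adjusted p = 0.39).

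The mitochondrial family was the largest class, with 18 analysed genes of 20 and medians of -0.06, 0.12, 0.16, -0.05 and 0.08. Beside Slc25a5, which rose, the member with the highest median difference was Slc25a48, whose start region is shown above. It was at 7.65 at 0 h and at 8.89, 8.63, 8.68, 8.04 and 8.41. All P4 arrays were above 0 h, most at 6 h and least at 18 h (0.88 ± 0.28, adjusted p = 0.14). Slc25a1 and Slc25a10, which export citrate and exchange dicarboxylates, were lowest at 6 h. The citrate carrier was at 9.51 at 0 h, 8.73 at 6 h and 9.13 to 9.55 later. The dicarboxylate carrier was at 9.02 at 0 h, 8.40 at 6 h and 8.82 to 8.99 later. Slc25a28 (mitoferrin 2), which brings iron into mitochondria, was at 8.59 at 0 h and was lowest at 24 h, at 8.05 (-0.34 ± 0.17, adjusted p = 0.34).

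In the Golgi and ER families 33 and 35, 8 genes of 11 were analysed. Slc35b1 stood at 9.05 at 0 h and at 10.10, 10.50, 10.37, 9.81 and 9.83, above 0 h on every array and most at 12 h, by 1.45. Its group difference was 1.07 ± 0.26 (SE, adjusted p = 0.077) and did not pass. Slc35a1, which brings CMP-sialic acid into the Golgi, was at 7.92 at 0 h and 8.11 to 8.45 after it (0.33 ± 0.16, adjusted p = 0.33). The other members stayed within 0.28 of 0 h at every time. Class medians were 0.06, 0.16, 0.13, 0.08 and 0.03.

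Nucleoside and vitamin carriers held 6 analysed genes of 8. Their medians were above 0 at all times and smaller later on (0.27, 0.22, 0.13, 0.15 and 0.08). Slc29a1 was described above. Slc19a1, the reduced folate carrier, was at 7.64 at 0 h and 8.11, 8.22, 8.25, 8.22 and 7.86 after it, all above 0 h (0.49 ± 0.17, adjusted p = 0.17), while its second probe set had a median difference of -0.06. Slc5a6, which carries biotin and pantothenate, had a level of 7.10 at 0 h and of 7.44 and 6.92 on the first and last P4 arrays, with a slope over the P4 arrays of -0.74 ± 0.19 per 24 h (adjusted p = 0.087).

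Carriers of organic ions, bile acids, fatty acids and choline held 11 analysed genes of 23. Slc44a1, the choline carrier, was at 9.21 at 0 h and 8.73, 8.58, 8.70, 8.67 and 8.80 after it. These 5 values were close together and below 0 h (-0.52 ± 0.13, adjusted p = 0.085). Slc44a2, its relative, was at 7.03 at 0 h and 6.63 to 6.89 after it. Slc10a3 was at 7.74 at 0 h, 7.83 at 6 h and 8.39 to 8.47 from 12 h on (0.57 ± 0.24, adjusted p = 0.25). Slc10a3 passed only without the 6 h array, with 0.69 ± 0.10. That fit called more probe sets over all genes than the fit with every array. Slc22a5, the carnitine carrier, was at 6.95 at 0 h, 7.47 at 6 h and within 0.08 of 0 h later.

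The filter left out 45 carriers, 39 of them below the floor on every array and 6 above it on 1 array. That array was 0 h for 2 genes, 6 h for 2, 12 h for 1 and 15 h for 1. The rule of at least 2 arrays removes a gene seen at 0 h alone but keeps one seen on the P4 arrays alone, as 4 were (Slc20a1, Slc33a1, Slc4a1 and Slc7a6). Both genes above the floor at 0 h alone are of the fatty acid family 27. Slc27a1 (FATP1), which takes up long-chain fatty acids in fat and muscle, had deposited values of 7.34 at 0 h and 6.56, 5.93, 5.62, 5.74 and 5.96 after it. Slc27a3 had 6.83 at 0 h and 6.09 to 6.24 after it. With the floor at the 20th percentile, 5.39, Slc27a1 differed by -1.38 ± 0.30 (adjusted p = 0.066) and Slc27a3 by -0.65 ± 0.13 (adjusted p = 0.0497). The 3 adipocyte markers with a value on every array (Adipoq, Retn and Car3) summed to 3540 at 0 h and 874 to 2032 after it, and Fabp4, Pparg, Cidec and Ucp1 did not pass the filter. The part of fat in these values was not tested. Others just outside the filter were Slc35d1 (highest value 6.82), Slc6a4 (6.69), Slc27a2 (6.64) and Slc35a2 (6.61). Just inside it, Slc25a47, Slc33a1 and Slc4a1 were above on 2 arrays.

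Sugar carriers beyond those left out held 6 analysed genes of 8. Slc2a4 (GLUT4), the insulin-responsive glucose carrier, was at 6.96 at 0 h, at the floor at 6 h and at 6.66, 6.95, 7.11 and 7.20 later (slope over the P4 arrays 0.90 ± 0.19 per 24 h, adjusted p = 0.062). Slc2a5, for fructose, was at 8.38 at 18 h and at 8.70 to 8.96 on the other arrays. Slc37a4, which brings glucose 6-phosphate into the ER, was at 7.59 at 0 h and 7.75 to 7.90 after it. Of the genes left out by the rule, the glucose carrier Slc2a3 was far from this range, with differences between 1.36 (18 h) and 2.36 (6 h).

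No ion carrier passed the test against 0 h. Slc8a1 (NCX1), the sodium and calcium exchanger, was at 9.86 at 0 h and 9.10, 9.39, 9.39, 9.62 and 9.50 after it, all below 0 h (-0.46 ± 0.18, adjusted p = 0.23). The smooth muscle markers, in whose cells Slc8a1 is also made, had median differences of -0.13 at 6 h and 0.28 to 0.52 later. Slc41a1, a magnesium carrier, was at 8.43 at 0 h and 8.05 to 8.32 after it. The 8 proton, bicarbonate and chloride carriers had medians between -0.07 and 0.05. Slc4a2 (AE2), which exchanges bicarbonate for chloride, was below 0 h on every P4 array, at 8.58 to 8.77 (-0.33 ± 0.13, adjusted p = 0.22). Slc12a7 (KCC4), which carries potassium out with chloride, was at 7.91 at 0 h and 7.48 to 7.70 after it (-0.32 ± 0.13, adjusted p = 0.25). Its relative Slc12a4 (KCC1) was the other way, at 8.04 at 0 h and 8.12 to 8.46 after it. Slc12a2 (NKCC1), the most intense of these, lay between 9.54 and 9.94. Carbonic anhydrase Car2, which makes the bicarbonate that such carriers move, fell by 1.34 ± 0.21 (SE, adjusted p = 0.025). It was the 1 gene called of 6 acid-base enzymes, where 1.91% of all genes fell.

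Of 7 phosphate, sulfate and carboxylate carriers, 2 were analysed. The lactate carrier Slc16a8 lay between 8.60 and 8.85, and the phosphate carrier Slc20a1 was at the floor at 0 h and at 6.90 at 6 h. The lactate carrier Slc16a1 was below the floor on every array. The symbol rule also took 3 genes that are not carriers. Slc9a3r1 and Slc9a3r2, scaffolds that anchor carriers at the membrane, were at 9.51 and 7.03 at 0 h. At 6 h they were at 9.02 and 7.41, and within 0.16 of 0 h later. Slc4a1ap lay between 7.07 and 7.28. Slc66a2, which was put in no class, was at 9.62 at 0 h, 9.02 at 6 h and 9.44 to 9.56 later.

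**Figure D5:**
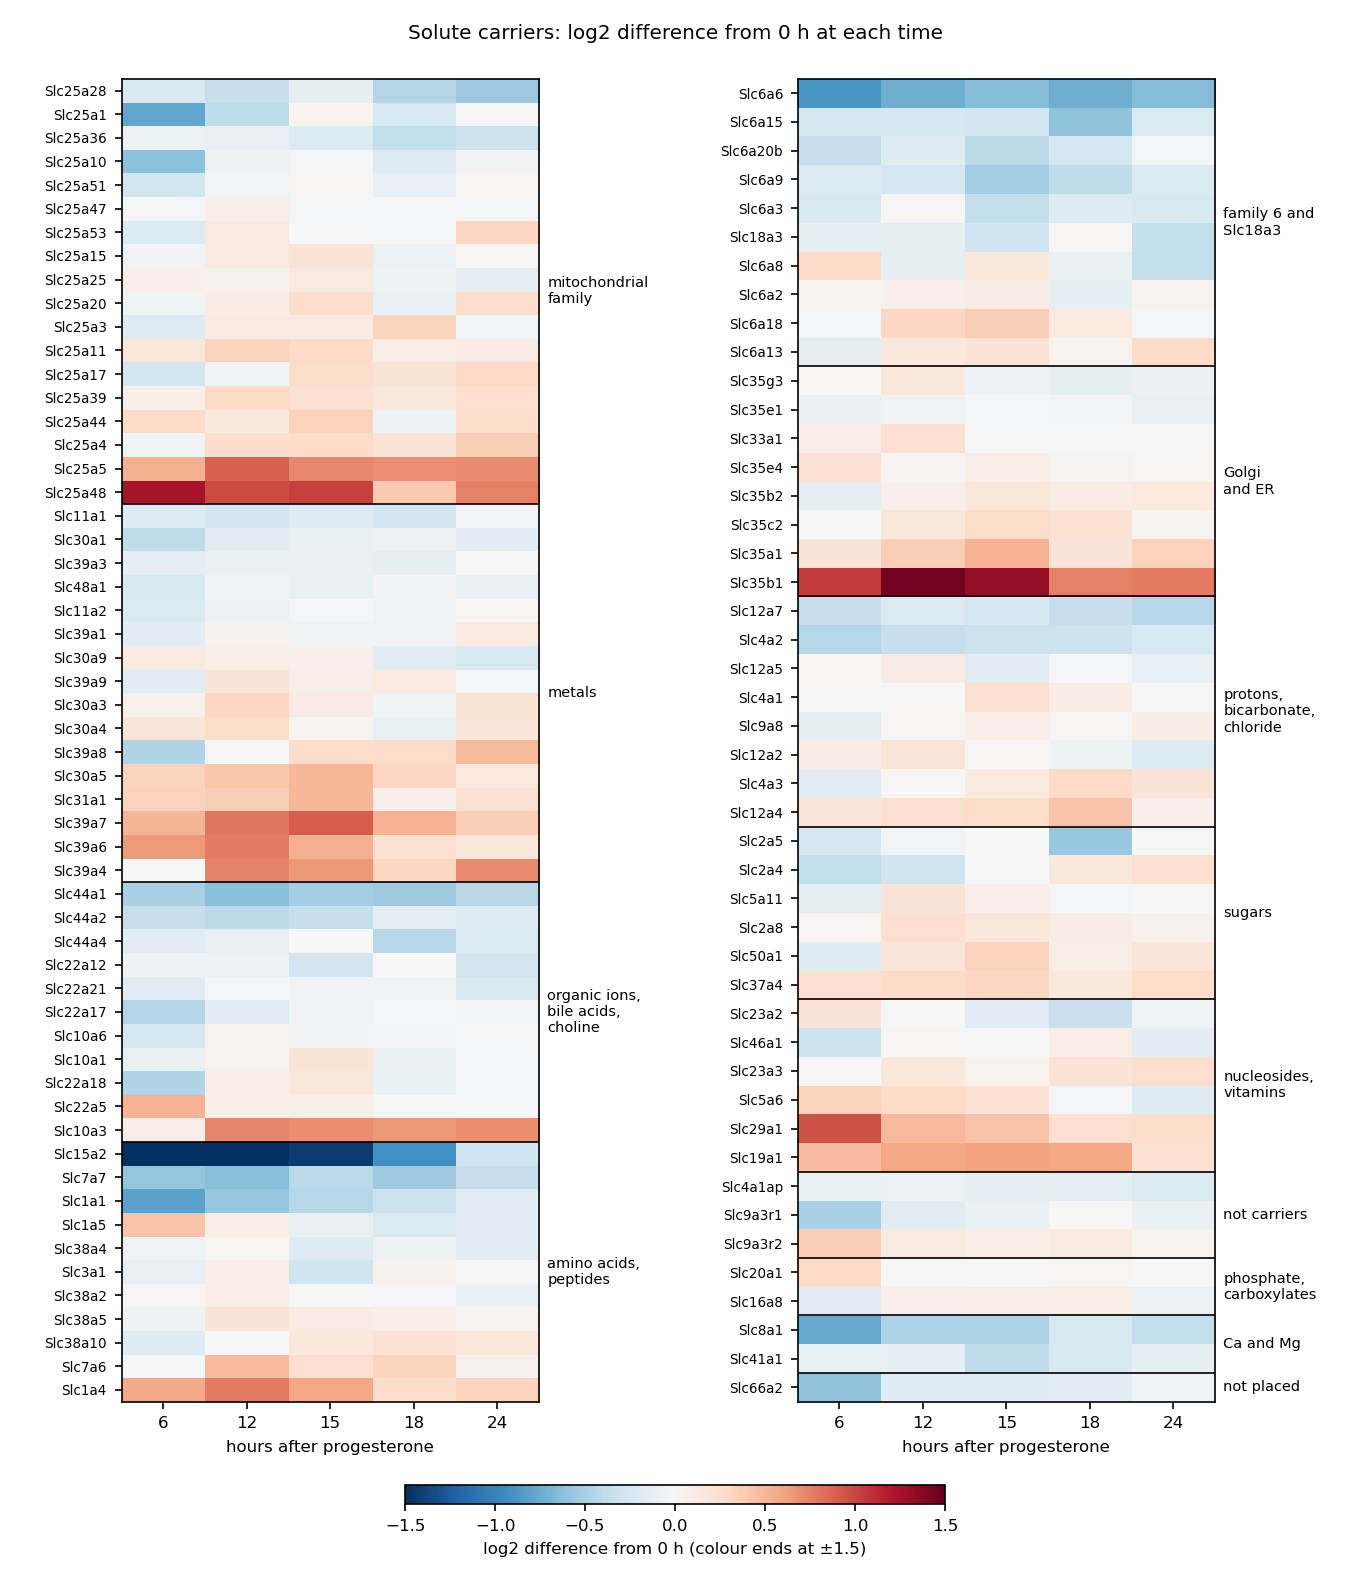
Log2 difference from 0 h of all 102 analysed carriers (rows, by substrate class) at each of the 5 times (columns); red is higher and blue lower than 0 h, and colours end at 1.5 in each direction. Slc15a2 is the darkest blue row and is paler at 24 h (-0.30), and Slc35b1 is the darkest red row at 12 h (1.45).

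Genes that work beside solute carriers were read from lists as well. In the fit against 0 h, 0.948% of all genes rose and 1.91% fell. Of 13 analysed ATP-binding cassette transporters, which use ATP directly, 0 rose and 3 fell. These were Abca4 (-1.59 ± 0.17, adjusted p = 0.0061), which moves retinoid lipids, Abcb1a (-1.06 ± 0.18, adjusted p = 0.027), a drug efflux pump, and Abca1 (-1.09 ± 0.21, adjusted p = 0.041), which exports cholesterol. Of 9 partner subunits and scaffolds, 1 rose, the membrane linker Rdx (0.88 ± 0.17, adjusted p = 0.041). Emb, a chaperone of lactate carriers, was at 9.78 at 0 h and 8.53 at 6 h (-0.80 ± 0.25, adjusted p = 0.13). Of 10 kinases and ligases that act on carriers, 0 rose or fell, although Sgk1, a steroid-induced kinase, was at 8.56 at 0 h and went from 10.64 at 6 h to 8.69 at 24 h. The 1 analysed member of the related organic anion family, Slco3a1, had differences of 0.62, 0.55, 0.23, -0.18 and -0.28.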

How the data were processed

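Expression was read from 6 Affymetrix arrays, 1 per time. Per the deposited table, each probe set has 1 log2 value per array. The normalization and software were not given in the sources used here; the base of the log was read from the values. The columns share a lower limit of 5.39. Of 12487 probe sets, 65 controls were left out and 121 missing values stayed missing. Values under the 40th percentile (6.60) were set to it, so a difference from a floored value is a limit, and the 7731 probe sets above it on at least 2 arrays were tested. Array annotation gave gene names. Groups and times came from sample titles. Limma 3.58.1 (R 4.3.3; lmFit, eBayes, trend over intensity) set the 5 progesterone arrays against 0 h, and separately fitted hours over all 6 arrays and over the 5. Benjamini-Hochberg adjustment ran over all probe sets tested, and a gene is said to have risen or fallen at an adjusted p below 0.05. Background counts use 1 probe set per gene. Single times have no test.

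Members and lists were chosen with earlier results of these data known. Named carriers are those past 2-fold or called, the highest, lowest and most intense of each class, and the 3 highest and lowest at each time and in the trend over hours; others named, the substrate classes' final names and the ER stress motif were chosen after values were seen. Alternatives were other floors and filters, quantile normalization, 1 prior for all intensities, and leaving out each array. The scripts were tested on simulated data.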

Additional observations from a re-analysis of the deposited data

How the results depend on the processing

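Over the named carriers and these alternatives, 477 values kept direction and side of the threshold, 2 newly passed, 9 no longer passed and 9 changed sign. The sign changes were of 3 carriers near 0 that passed in no fit: Slc12a2 (-0.022 without the 6 or 12 h array, in a range up to 0.075 over left-out arrays), Slc16a8 (-0.0069 to -0.0020 without the 12, 15 or 18 h array, in a range up to 0.082) and Slc5a11 (0.010 with quantile normalization, and -0.011 to 0.035 over left-out arrays). Quantile normalization turned the sign of the carriers' median at 18 h (0.029) and 24 h (0.0014), as did the floor at the 60th percentile at 24 h (0.014). When the floor was the 20th percentile, 2 carriers were at least 2-fold higher at 12 h, 2 lower at 12 h, 2 lower at 15 h, 1 lower at 18 h and 1 lower at 24 h. Early higher, that is past 2-fold at 6 h but within 1.5-fold on the last 2 arrays, was 1 carrier with that floor, with no floor and with quantile normalization, against 0. Without a floor 2 were higher at 12 h. At 15 h, 1 was higher when the 60th percentile was the floor or under quantile normalization. With no filter the carriers' median at 6 and 12 h was 0, since most added genes lie at the floor.

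Against 0 h, 2 carriers fell with the floor at the 20th percentile (Slc6a6 and Slc27a3) or the 60th (Slc6a6 and Slc7a7, adjusted p = 0.027), and 3 fell and 0 rose with no filter (Slc6a6, Slc27a1 and Slc27a3; Slc25a5 at an adjusted p of 0.11). Without a filter, values equal to the floor on the progesterone arrays leave Slc27a1 and Slc27a3 almost no spread. The 60th percentile, 7.70, lay above the Slc7a7 values of 7.52, 7.48 and 7.57 at 6, 12 and 18 h. Setting these to that floor narrowed its spread, with a difference of -0.40 ± 0.07 against -0.50 ± 0.15 at the main floor. Leaving out 1 array gave 0 to 2 carriers that rose and 0 to 1 that fell against 0 h, 0 to 2 that rose in the trend over all arrays (2 without 0 h), and 0 that rose in the trend over the progesterone arrays without any 1 of them, an alternative chosen after seeing the data. Over all probe sets, the fit against 0 h called most without the 6 h array. Without a later array it called fewer than with every array. The trend over all arrays called 147 probe sets without 0 h and 0 to 52 without another array. Other causes were not tested. No paired analysis was possible because each group has 1 sample.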
